A study of Mus musculus with 24 samples.

Results

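The genes of cholesterol synthesis and handling were followed in mouse brain microvessels after transient middle cerebral artery occlusion (tMCAO). These 34 genes were chosen by their known function from the 17270 genes of the table, and the list was drawn up with earlier results of these data known, so that it is no independent sample of genes. They comprise 20 enzymes of the pathway, 5 genes of its control by the SREBP factors, 5 genes of sterol uptake and transport within the cell, and 4 genes of efflux, storage and the liver X receptor. All 34 were listed, and all averaged more than 5 normalized counts per library, the limit for testing.

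Male C57BL/6J mice aged 10 to 12 weeks had the right middle cerebral artery closed for 60 min with a filament, or underwent sham surgery in which the filament was withdrawn at once. Microvessels were isolated from the ipsilateral or the contralateral hemisphere 24 h or 7 days later, which gave 8 groups of 3 libraries (tMCAO or sham, either hemisphere, either time point). Each library held vessels of 3 pooled hemispheres. Such preparations hold endothelial cells together with attached pericytes, smooth muscle cells and remnants of other cells, so that fewer cells of a type and less RNA per cell cannot be told apart in them.

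Cholesterol is built from acetyl-CoA through mevalonate and squalene, and the sterol ring is then trimmed by a series of enzymes in the endoplasmic reticulum. When sterols in this membrane are low, Scap escorts the SREBP factors to the Golgi apparatus, where they are cut and released to switch on the genes of synthesis and uptake, and Insig proteins hold the complex back when sterols are plentiful. Oxysterols act through liver X receptors, which turn on the exporters Abca1 and Abcg1 and the ligase Mylip, which marks lipoprotein receptors for breakdown. The brain makes its own cholesterol because the blood-brain barrier keeps lipoproteins of the plasma out.

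The libraries summed to 15924780 to 18787932 normalized counts, and replicates of a group were correlated at r = 0.967 to 0.988 on the log2 scale. The endothelial markers were high in every group, with sums of 294573 to 463094 normalized counts per library, and were lower in ipsilateral vessels at 24 h after tMCAO than in their shams (294573 to 333234 against 343312 to 429675). The first contralateral library at 7 days after tMCAO stood apart, with 43933 normalized counts of astrocyte markers against 14876 and 17741 in the other libraries of its group. For testing, log2(normalized count + 1) of 15982 genes was fitted with limma, and a gene was called higher or lower when its adjusted p was under 0.05 and its log2 fold change (log2FC) was beyond that of a 1.5-fold change in either direction. All log2FC below are on this scale, which understates the change of low genes.

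At 24 h, synthesis genes stood higher in ipsilateral vessels after tMCAO than after sham surgery, and at 7 days several of the same genes stood lower. In the ipsilateral comparison at 24 h, 6 of the 34 genes were called higher, namely Mvd, Sqle, Cyp51, Msmo1, Hsd17b7 and Tmem97, against 10.0% of all tested genes. Only Mylip was called lower, against 8.23% of all tested genes. At 7 days none was called higher, against 3.27% of all tested genes, although 3 had an unadjusted p under 0.05 in that direction. At this time 8 were called lower (Hmgcs1, Sqle, Cyp51, Tm7sf2, Msmo1, Hsd17b7, Insig1 and Tmem97), against 9.95% of all tested genes. Without the second ipsilateral sham library at 7 days, 5 were called lower, and without the second ipsilateral tMCAO library at 24 h Mylip was not called. With every library centred on its median, the comparison at 24 h called 5 genes of the list higher, against 8.32% of all tested genes, and 1 lower, against 10.7%.

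The direction changed between the time points for most of the list. The median log2FC of the 34 genes was 0.225 at 24 h and -0.252 at 7 days, while that of all tested genes was -0.024 and 0.025. At 24 h, 26 of the 34 genes had a positive log2FC, against 48.2% of all tested genes. At 7 days 24 had a negative one, while 53.0% of all tested genes had a positive one. A positive value at 24 h followed by a negative one at 7 days was found for 21 of the 34 genes and for 15 of the 20 enzymes. These counts include values near 0, and with both sham groups as the reference 18 of the 34 genes showed this course. The share of all tested genes with this course was not computed. The tMCAO libraries did not overlap with their shams for 20 of the 34 genes at 24 h, where 49.0% of all tested genes showed this, and for 18 at 7 days, where 30.0% did.

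**Figure D1:**
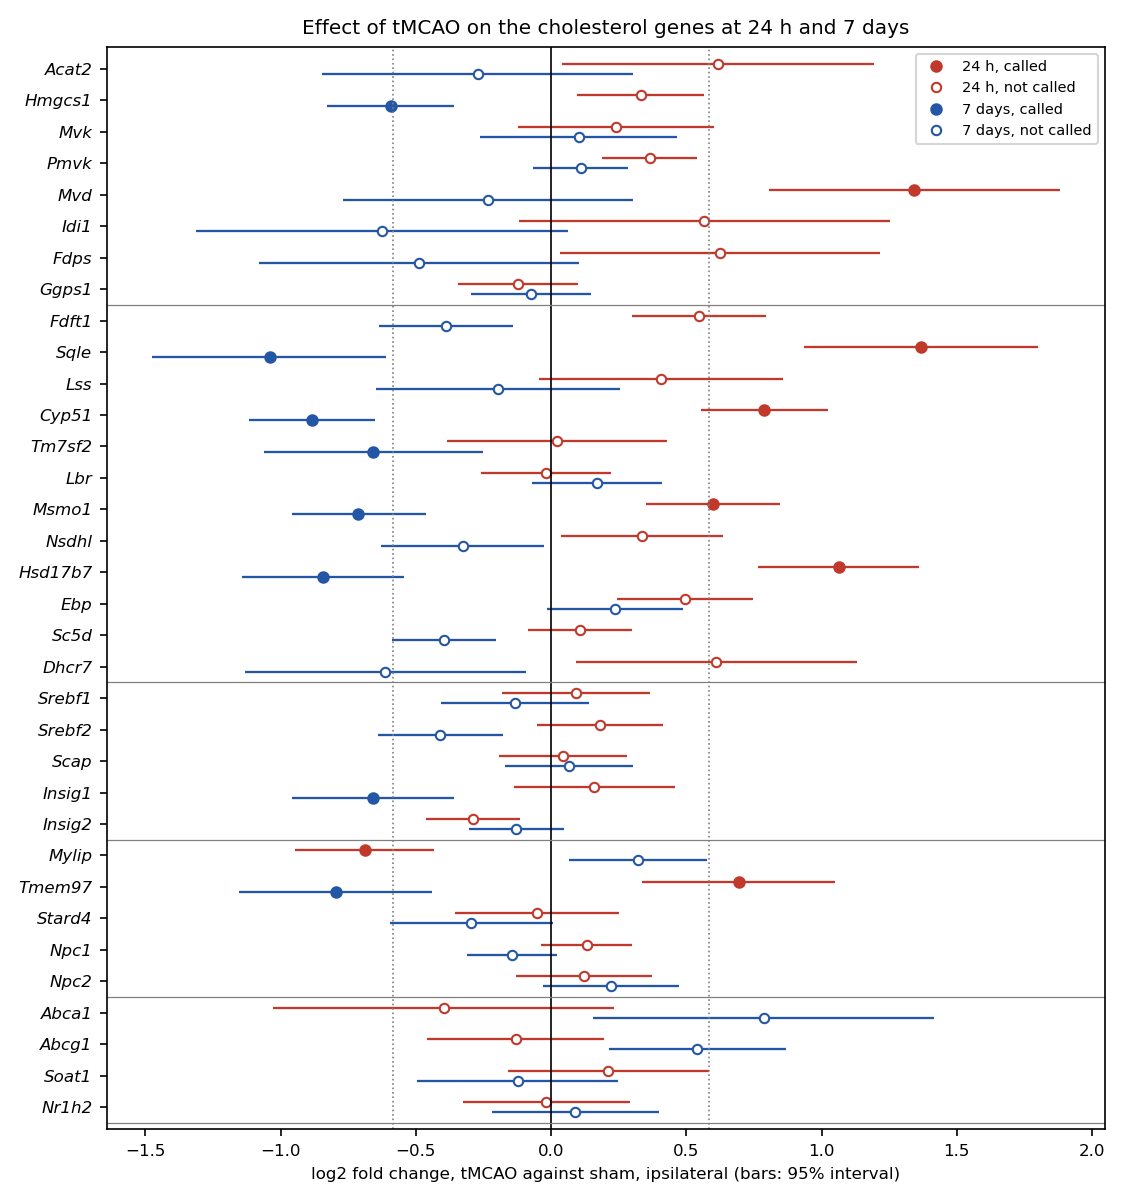
Log2 fold change (x axis) of tMCAO against sham in ipsilateral vessels for each of the 34 genes (y axis, ordered by role), at 24 h in red and at 7 days in blue, with bars for the 95% interval and filled points for called genes. Dotted lines mark the limit of a 1.5-fold change on either side, and the 5 genes called at both time points (Sqle, Cyp51, Msmo1, Hsd17b7 and Tmem97) have their red points on the right and their blue points on the left.

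The difference between the effect at 7 days and the effect at 24 h was tested by itself, and this test uses separate sham groups for each time point. It called 12 genes lower (Hmgcs1, Mvd, Fdft1, Sqle, Cyp51, Msmo1, Nsdhl, Hsd17b7, Dhcr7, Srebf2, Insig1 and Tmem97), against 5.68% of all tested genes. Mylip was the only gene called higher, against 2.43% of all tested genes, and a second gene joined it without the second tMCAO library of either time (Abcg1 at 7 days and Abca1 at 24 h). Of the 20 enzymes, 18 had a negative difference, with a median of -0.91 on the log2 scale. With median centring Nsdhl, Dhcr7 and Srebf2 were not called and Abcg1 was, and the shares of all tested genes were 4.29% lower and 3.72% higher.

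The sham groups themselves differed in level between the time points, which bears on every comparison of 24 h with 7 days. In ipsilateral sham vessels the 34 genes had a median log2FC of 0.203 at 7 days against 24 h. Positive values numbered 25, against 49.7% of all tested genes. For 14 genes the unadjusted limma p was under 0.05, 12 of them higher, against 2258 of 15982 tested genes in either direction. Msmo1 alone passed the full call there (log2FC 0.61, limma adjusted p = 0.0179), against 0.476% of all tested genes, and that call was lost when any of 5 of the 6 libraries was left out. In contralateral sham vessels the median was 0.192 and none was called, against 0.332% of all tested genes. For 12 genes the unadjusted limma p was below 0.05, against 1729 of 15982 tested genes, and the lowest limma adjusted p was 0.0533. Without the third contralateral sham library at 7 days, 2 genes were called. The effect of tMCAO at 7 days is thus measured from higher sham values than the effect at 24 h. With all 6 ipsilateral sham libraries as the reference, an alternative chosen after seeing the data, 4 genes were called higher at 24 h (Mvd, Sqle, Hsd17b7 and Tmem97), against 9.39% of all tested genes, and 4 lower at 7 days (Sqle, Cyp51, Hsd17b7 and Tmem97), against 11.6%. Each count of 4 in 34 is close to the share over all genes.

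The stretch of 160 bases before the transcription start is shown for 9 genes called against sham at 24 h or 7 days, so that their letters can be compared. These have a window in the set of RefSeq promoters used here (GRCm38.p6), while Sqle, also called, had none in that set. Mylip is shown although it moved the other way. Capitals mark CCAAT, the motif bound by NF-Y, an SREBP partner, which reads ATTGG where it lies on the other strand, and in Hmgcs1 also the sterol regulatory element searched as TCACNCCAC. The windows are Hsd17b7 at chr1:169969206-169969365 (minus strand), Cyp51 at chr5:4104698-4104857 (minus), Insig1 at chr5:28071252-28071411 (plus), Msmo1 at chr8:64733579-64733738 (minus), Mvd at chr8:122443423-122443582 (minus), Tmem97 at chr11:78550736-78550895 (minus), Hmgcs1 at chr13:119690191-119690350 (plus), Mylip at chr13:45389582-45389741 (plus) and Tm7sf2 at chr19:6067851-6068010 (minus), each printed 5′ to 3′ on the gene's strand.
Hsd17b7: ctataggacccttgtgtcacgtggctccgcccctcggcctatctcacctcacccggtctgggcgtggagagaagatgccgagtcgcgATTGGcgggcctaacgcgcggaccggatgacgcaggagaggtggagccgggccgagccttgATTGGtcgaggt
Cyp51: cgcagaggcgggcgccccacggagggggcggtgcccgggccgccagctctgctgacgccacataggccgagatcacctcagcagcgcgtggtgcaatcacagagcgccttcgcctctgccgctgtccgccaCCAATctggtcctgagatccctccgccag
Insig1: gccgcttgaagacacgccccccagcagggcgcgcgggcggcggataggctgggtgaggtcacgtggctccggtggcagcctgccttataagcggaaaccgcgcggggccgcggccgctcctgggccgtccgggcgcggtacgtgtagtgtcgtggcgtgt
Msmo1: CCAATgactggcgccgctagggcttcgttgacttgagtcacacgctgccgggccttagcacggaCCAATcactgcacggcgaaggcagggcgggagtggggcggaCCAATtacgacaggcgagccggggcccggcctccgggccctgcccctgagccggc
Mvd: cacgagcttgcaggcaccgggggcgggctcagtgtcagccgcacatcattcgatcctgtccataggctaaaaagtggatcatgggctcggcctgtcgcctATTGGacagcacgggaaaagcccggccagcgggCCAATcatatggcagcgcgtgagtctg
Tmem97: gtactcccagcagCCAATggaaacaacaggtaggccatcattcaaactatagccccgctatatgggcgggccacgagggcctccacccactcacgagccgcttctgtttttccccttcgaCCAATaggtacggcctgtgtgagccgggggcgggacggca
Hmgcs1: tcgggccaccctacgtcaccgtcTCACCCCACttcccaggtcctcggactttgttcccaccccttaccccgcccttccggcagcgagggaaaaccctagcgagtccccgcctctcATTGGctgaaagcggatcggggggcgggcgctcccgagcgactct
Mylip: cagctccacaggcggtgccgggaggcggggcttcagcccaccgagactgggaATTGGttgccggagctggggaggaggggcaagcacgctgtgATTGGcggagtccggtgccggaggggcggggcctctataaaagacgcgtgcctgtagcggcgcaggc
Tm7sf2: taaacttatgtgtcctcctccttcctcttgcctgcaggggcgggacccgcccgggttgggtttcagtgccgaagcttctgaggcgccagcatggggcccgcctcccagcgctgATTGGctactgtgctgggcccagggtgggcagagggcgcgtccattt
Both strands of the 250 bases before each start were searched. CCAAT was found for 24 of the 28 genes of the list with a RefSeq window, or 85.7%, against 39.8% of the 11591 tested genes with one. The motif GGGCGG, bound by Sp1, was also found for 24 of the 28, against 62.1%. The sterol regulatory element in the spelling above was found for Hmgcs1 alone, against 1.28% of the tested genes. A liver X receptor motif of the DR4 type, searched in 1 exact spelling, was found for none, against 0.0% of the tested genes. With only 5 of all 32851 windows holding that spelling, the search cannot decide whether the list has liver X receptor sites. Promoters of Fdft1, Fdps, Sqle, Npc1, Stard4 and Abcg1 had no window in the set used and were not searched. These matches are descriptions of the letters in the windows. Msmo1 carries 3 CCAAT in the bases shown, Mvd, Hsd17b7, Tmem97 and Mylip carry 2 each, so that the motif was found in genes of both directions, and Insig1 carries none there, its only one lying 216 bases before the start.

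**Figure D2:**
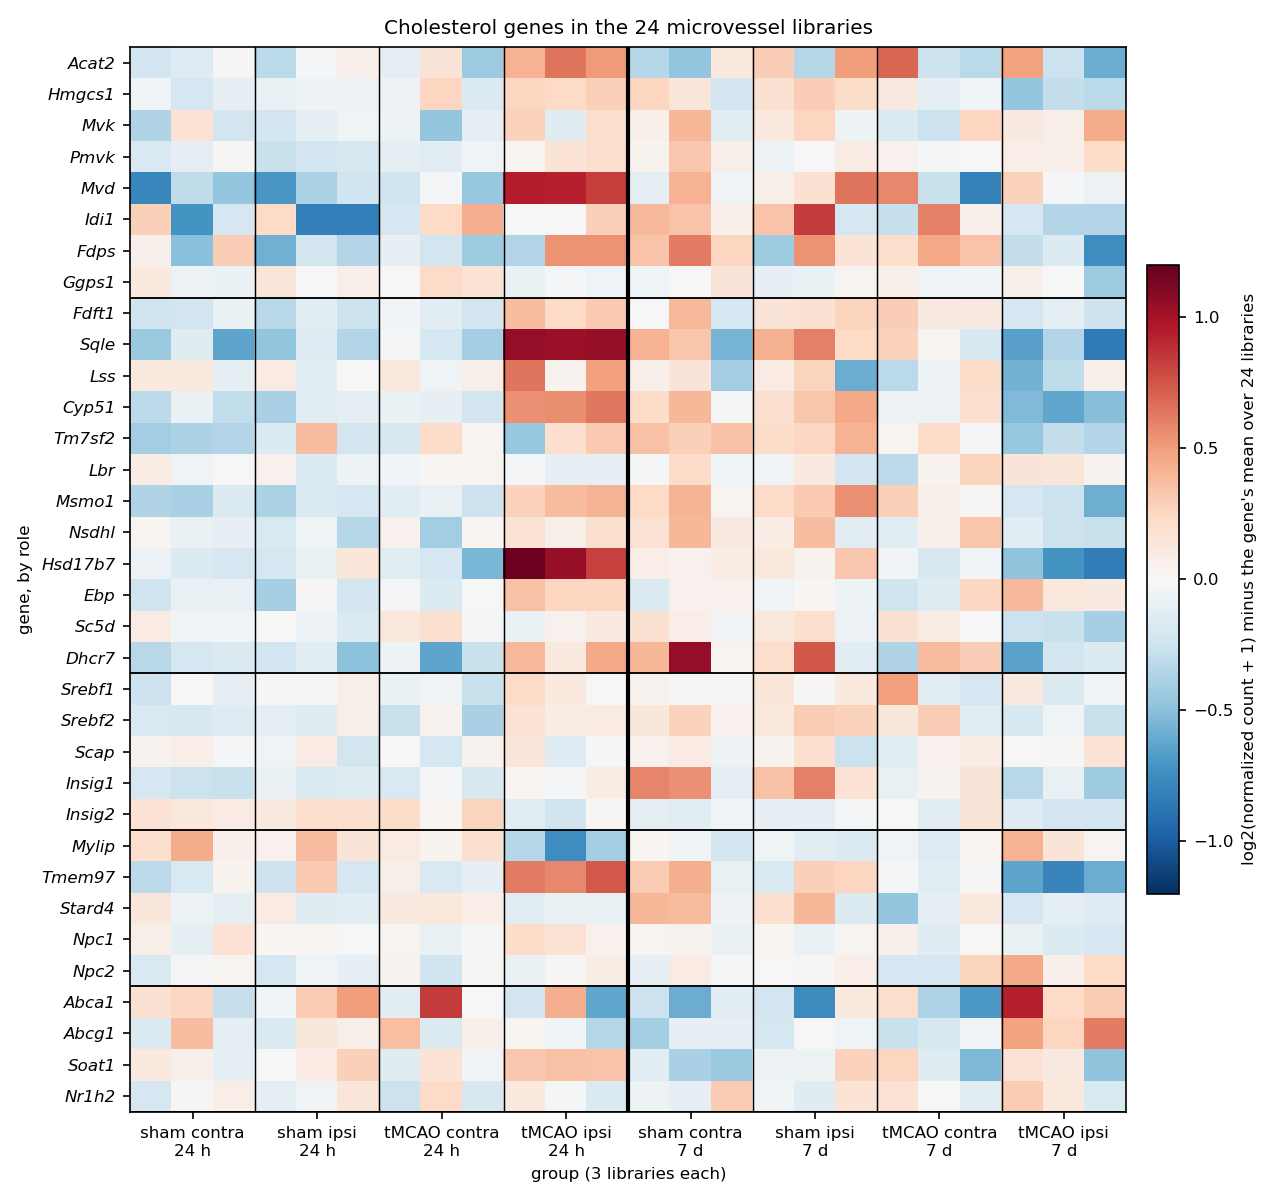
Log2(normalized count + 1) of each gene (y axis, ordered by role) in each of the 24 libraries (x axis, 3 per group), minus the mean of that gene over all libraries, with red for higher and blue for lower values. The 3 ipsilateral tMCAO libraries at 24 h form a red block over most enzymes, and those at 7 days a blue one, while the exporters Abca1 and Abcg1 are red at 7 days.

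Of the 12 enzymes from squalene to cholesterol, 4 were called higher at 24 h, against 10.0% of all tested genes. At 7 days 5 were called lower, against 9.95%. With both sham groups as the reference, Cyp51 and Msmo1 at 24 h and Tm7sf2 and Msmo1 at 7 days were not called. Squalene epoxidase (Sqle), which starts ring formation and is a rate-limiting step of the pathway, lay at 171, 214 and 187 normalized counts in ipsilateral sham vessels at 24 h and at 497, 486 and 492 after tMCAO. At 7 days it lay at 321, 362 and 281 after sham surgery and at 151, 186 and 132 after tMCAO. The tMCAO libraries at 24 h were thus above every other library. At 7 days the tMCAO libraries lay below the ipsilateral shams of that time, although the one at 186 was above the sham library of 171 at 24 h. At neither time did they overlap with the ipsilateral shams of the same time. The log2FC was 1.37 (SE 0.21, 2.58-fold, limma adjusted p = 8.47e-05) at 24 h and -1.04 (SE 0.21, limma adjusted p = 0.0014) at 7 days. Its difference of effects of -2.41 (SE 0.29, limma adjusted p = 5.98e-05) was the most negative of the list.

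Hsd17b7, a reductase of the complex that removes methyl groups from the sterol ring, had 102, 110 and 130 normalized counts after sham surgery and 267, 243 and 208 after tMCAO at 24 h. At 7 days the values were 128, 121 and 147 against 84, 71 and 65. In the 12 contralateral libraries it ranged from 80 to 125, so that the ipsilateral tMCAO libraries at 24 h lay above all others. Hsd17b7 rose by a log2FC of 1.06 (SE 0.14, limma adjusted p = 2.57e-05) at 24 h and fell by 0.84 on the log2 scale (SE 0.14, limma adjusted p = 0.000317) at 7 days.

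Cyp51, the lanosterol demethylase, showed the same course. It lay at 341, 407 and 415 normalized counts in ipsilateral shams and at 655, 656 and 694 after tMCAO at 24 h, and at 511, 562 and 613 against 309, 289 and 312 at 7 days. The contralateral libraries ranged from 360 to 588, between the tMCAO groups of both times. Its log2FC was 0.79 (SE 0.11, limma adjusted p = 4.5e-05) at 24 h and -0.88 (SE 0.11, limma adjusted p = 1.95e-05) at 7 days, and the difference of -1.67 (SE 0.16) had the lowest adjusted p of the list (limma, 2.04e-05). With both sham groups as the reference its value at 24 h was 0.52 and below the limit on the fold change.

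Msmo1, the oxidase that opens the removal of methyl groups, lay at 534, 620 and 606 normalized counts after sham surgery and at 842, 898 and 921 after tMCAO at 24 h. The 7-day values were 816, 862 and 1016 against 604, 582 and 462. The groups did not overlap at either time, but the shams at 7 days reached the level of the tMCAO group at 24 h. The log2FC of 0.60 at 24 h (SE 0.12, limma adjusted p = 0.000984) was just beyond the limit and was no longer called without the third tMCAO library or the first sham library of that comparison (0.57 and 0.53) or with median centring (0.53). At 7 days it was -0.71 (SE 0.12, limma adjusted p = 0.000271). With both sham groups as the reference the values were 0.29 at 24 h and -0.41 at 7 days, neither of them called.

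Nsdhl, the dehydrogenase of the same complex, was called in the difference of effects only. At 24 h it lay at 264, 289 and 235 normalized counts in shams and at 338, 313 and 342 after tMCAO, and at 7 days at 318, 386 and 274 against 274, 250 and 248. The groups were apart at 24 h and touched at 7 days. The difference was -0.66 (SE 0.20, limma adjusted p = 0.0431), with -0.33 at 7 days and 0.34 at 24 h. It was called in 3 of the 12 fits that each left out 1 library.

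Squalene synthase (Fdft1), which joins farnesyl units, and Dhcr7, the last reductase of the pathway, were also called in that difference only. Fdft1 had 246, 282 and 258 normalized counts in shams and 400, 364 and 384 after tMCAO at 24 h, and 345, 350 and 373 against 269, 286 and 260 at 7 days. The ipsilateral groups of Fdft1 did not overlap at either time, and its log2FC of 0.55 and -0.39 (limma adjusted p = 0.00204 and 0.0276) stayed inside the limit of a 1.5-fold change, with a difference of -0.94 (SE 0.17). Its exons overlap those of Ctsb on the opposite strand over 774 bases, and whether the counting used strand is not stated in the sources used here. Dhcr7 varied more, with 223, 238 and 186 against 345, 285 and 359 at 24 h and 303, 441 and 238 against 168, 225 and 234 at 7 days. The second sham library at 7 days was the highest of these, and the difference was -1.22 (SE 0.35, limma adjusted p = 0.0317), called in 5 of the 12 fits that each left out 1 library.

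Tm7sf2 and Lbr encode sterol reductases that act on the same double bond, and only Tm7sf2 was called, at 7 days. It lay at 63, 64 and 72 normalized counts in shams and at 39, 44 and 42 after tMCAO (log2FC -0.66, SE 0.20, limma adjusted p = 0.0235). At 24 h the values were 48, 70 and 46 against 39, 62 and 67 and overlapped. Leaving out the first tMCAO library or the second or the third sham library ended the call at 7 days (limma adjusted p = 0.086, 0.0514 and 0.0789), and Tm7sf2 shares 532 exonic bases on the same strand with Vps51, which makes its low counts uncertain. Lbr, also a protein of the nuclear envelope, had a log2FC of -0.02 at 24 h and 0.17 at 7 days and overlapped with the shams both times.

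Lss, Ebp and Sc5d were called in neither comparison with sham. Lss, which closes the sterol ring, had a log2FC of 0.41 at 24 h and -0.20 at 7 days, and Ebp, the sterol isomerase, 0.49 and 0.24. Sc5d, a desaturase near the end, had 0.11 and -0.40. Those of Ebp at 24 h and Sc5d at 7 days had a limma adjusted p of 0.00487 and 0.00496 but stayed inside the fold-change limit. Lss at 24 h was called when length and GC content were corrected for (0.65, limma adjusted p = 0.0249), and Ebp at 24 h without the second sham library (0.60, limma adjusted p = 0.00224). Dhcr7, described above, had 0.61 and -0.61 (limma adjusted p = 0.0681 and 0.101).

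**Figure D3:**
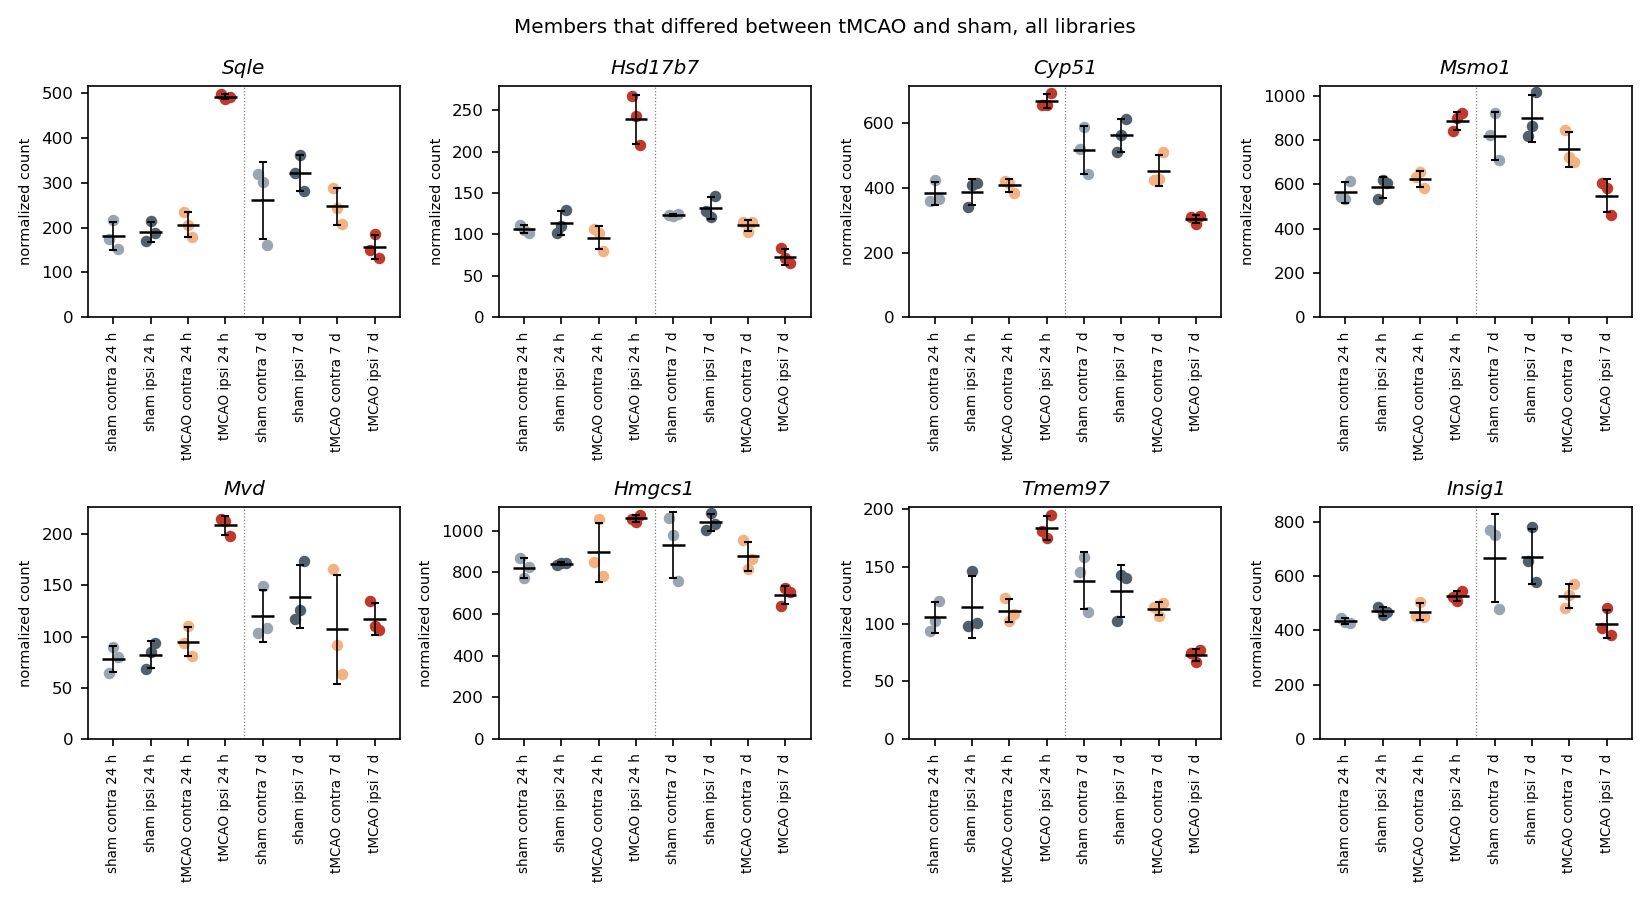
Normalized counts (y axis, from 0) of 8 genes in the 8 groups (x axis), with a point for each library, a line for the mean and bars for the SD of 3 libraries. In the panels of Sqle, Hsd17b7, Cyp51, Mvd and Tmem97 the 3 ipsilateral tMCAO libraries at 24 h are above all other libraries, and those of Cyp51 and Tmem97 at 7 days are below all others.

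In the mevalonate part of the pathway, Mvd, the decarboxylase that yields isopentenyl diphosphate, rose 2.54-fold at 24 h. It lay at 68, 85 and 94 normalized counts in ipsilateral shams and at 215, 213 and 198 after tMCAO, and its 12 contralateral libraries ranged from 63 to 166. No other library reached the tMCAO libraries at 24 h. The log2FC was 1.34 (SE 0.26, limma adjusted p = 0.000718). At 7 days Mvd had 117, 126 and 174 against 135, 110 and 106, which overlapped (log2FC -0.23, limma adjusted p = 0.606), and the difference of effects was -1.58 (SE 0.36, limma adjusted p = 0.00934).

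Hmgcs1, the synthase that makes HMG-CoA, was called at 7 days. It lay at 1005, 1086 and 1033 normalized counts after sham surgery and at 640, 726 and 706 after tMCAO (log2FC -0.59, SE 0.11, limma adjusted p = 0.000909). At 24 h it had 835, 846 and 845 against 1058, 1043 and 1077, a log2FC of 0.33 (limma adjusted p = 0.032) inside the limit. Neither pair of groups overlapped. The call at 7 days rests on a value at the limit and was lost without the first tMCAO library (-0.54) or the second sham library (-0.56) and with median centring (-0.55), while the difference of -0.92 (SE 0.16, limma adjusted p = 0.00121) was called with each library left out in turn.

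The other 6 genes of the mevalonate part were not called in the ipsilateral comparisons. Acat2, the thiolase at the start, had a log2FC of 0.62 at 24 h and -0.27 at 7 days, and the kinases Mvk and Pmvk had 0.24 and 0.36 at 24 h and 0.10 and 0.11 at 7 days. Pmvk at 24 h had a limma adjusted p of 0.00342 and did not overlap with sham. Idi1, the isomerase, and Fdps, the farnesyl diphosphate synthase, had 0.57 and 0.63 at 24 h and -0.63 and -0.49 at 7 days, from means over the 24 libraries of 22.9 and 26.9 normalized counts. Without the first tMCAO library Fdps was called at 24 h (0.92, limma adjusted p = 0.0287), and without the first sham library, at 26 normalized counts against 12 and 12, Idi1 had 0.92 and was not called (limma adjusted p = 0.0578). Fdps shares 1124 exonic bases on the same strand with a second gene model, so that its level is uncertain. Ggps1, which makes geranylgeranyl diphosphate for protein prenylation, had -0.12 and -0.07.

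Summed over the 20 enzymes, ipsilateral vessels held 8672 to 8784 normalized counts after sham surgery and 10835 to 11192 after tMCAO at 24 h, against 9985 to 10766 and 8517 to 9220 at 7 days. The groups of a time point did not overlap. The sums of contralateral vessels lay between 8818 and 11239. Of the 8 groups, the ipsilateral tMCAO group at 24 h had the highest mean for 9 of the 20 enzymes, and that at 7 days had the lowest mean for 10. The matching shares of all tested genes were not computed, so whether these counts are unusual was not tested.

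Among the genes of SREBP control, Insig1, which retains Scap in the endoplasmic reticulum and is itself an SREBP target, stood below its shams at 7 days. It lay at 655, 783 and 579 normalized counts in ipsilateral shams and at 408, 482 and 383 after tMCAO (log2FC -0.66, SE 0.14, limma adjusted p = 0.00283). At 24 h it had 487, 457 and 466 against 523, 508 and 545, which did not overlap, with a log2FC of 0.16 (limma adjusted p = 0.413). Without the second sham library the value at 7 days was -0.54 and no longer beyond the limit, and the contralateral shams at 7 days were spread from 478 to 771. With both sham groups as the reference the value at 7 days was -0.41 and was not called. The tMCAO library of 482 at 7 days lay within the range of the ipsilateral shams at 24 h.

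Srebf2, the SREBP factor that favours cholesterol genes, was called in the difference of effects (-0.59, SE 0.16, limma adjusted p = 0.0221), a value at the limit that was called in 5 of 12 fits with 1 library left out. Its libraries held 2058, 2018 and 2350 normalized counts against 2512, 2376 and 2386 at 24 h, and 2442, 2760 and 2708 against 1952, 2149 and 1859 at 7 days. The tMCAO libraries were above the shams at 24 h and below them at 7 days. Srebf1, which favours fatty acid genes, had a log2FC of 0.09 and -0.13, and Scap had 0.04 and 0.07, with overlapping groups at both times. Insig2 had -0.29 at 24 h (limma adjusted p = 0.0136), inside the limit, and -0.13 at 7 days.

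Tmem97, a membrane protein that binds Npc1, followed the enzymes. It lay at 98, 146 and 101 normalized counts in shams and at 181, 175 and 195 after tMCAO at 24 h, and at 103, 143 and 140 against 75, 67 and 77 at 7 days. The groups did not overlap at either time. Its log2FC was 0.69 (SE 0.17, limma adjusted p = 0.00513) at 24 h and -0.80 (SE 0.17, limma adjusted p = 0.00256) at 7 days. Corrected for the length and GC content of transcripts, the value at 24 h was 0.39 (limma adjusted p = 0.0801).

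Mylip moved the other way. It lay at 880, 1092 and 945 normalized counts in shams and at 670, 505 and 640 after tMCAO at 24 h, and at 818, 774 and 750 against 1131, 945 and 867 at 7 days. The tMCAO libraries were below all others at 24 h and above their ipsilateral shams at 7 days. The log2FC was -0.69 (SE 0.12, limma adjusted p = 0.000389) at 24 h and 0.32 (SE 0.12, limma adjusted p = 0.0807) at 7 days, and the difference of 1.01 (SE 0.17, limma adjusted p = 0.0012) was called with each library left out in turn. Without the second tMCAO library the value at 24 h was -0.56 and inside the limit.

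The carriers of free sterol were not called in the ipsilateral comparisons with sham. Stard4, a carrier of the cytosol, had a log2FC of -0.05 at 24 h and -0.30 at 7 days. Npc1 and Npc2, which pass cholesterol out of lysosomes, had 0.13 and 0.12 at 24 h and -0.14 and 0.22 at 7 days.

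The efflux genes stood higher at 7 days than in ipsilateral shams of that time, mostly without passing the call. Abcg1, which hands cholesterol to lipoproteins, lay at 347, 399 and 386 normalized counts in ipsilateral shams and at 562, 479 and 613 after tMCAO at 7 days (log2FC 0.54, SE 0.16, limma adjusted p = 0.0213). Its ipsilateral tMCAO libraries were apart from their shams, and without the second of them Abcg1 was called (log2FC 0.64). Abca1, which loads apolipoproteins, had 1600, 1109 and 2046 normalized counts against 3592, 2227 and 2329, with 1 tMCAO library far above the others (log2FC 0.79, SE 0.30, limma adjusted p = 0.0828). Corrected for transcript length and GC content, Abca1 was called (log2FC 0.91, limma adjusted p = 0.0411). At 24 h both overlapped with sham, with -0.40 for Abca1 and -0.13 for Abcg1. Control libraries of 24 h reached into the range of the tMCAO libraries at 7 days. Abca1 had up to 3369 normalized counts in contralateral tMCAO vessels and 2664 in ipsilateral shams, and Abcg1 up to 518 in contralateral shams. The differences of effects were 1.18 (SE 0.43, limma adjusted p = 0.0827) and 0.67 (SE 0.22, limma adjusted p = 0.0587).

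Soat1, which esterifies cholesterol for storage, had 325, 350 and 399 normalized counts against 410, 416 and 414 at 24 h, without overlap and with a log2FC of 0.21 (limma adjusted p = 0.381), and -0.12 at 7 days. Nr1h2, the liver X receptor found in most tissues, had -0.02 and 0.09.

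**Figure D4:**
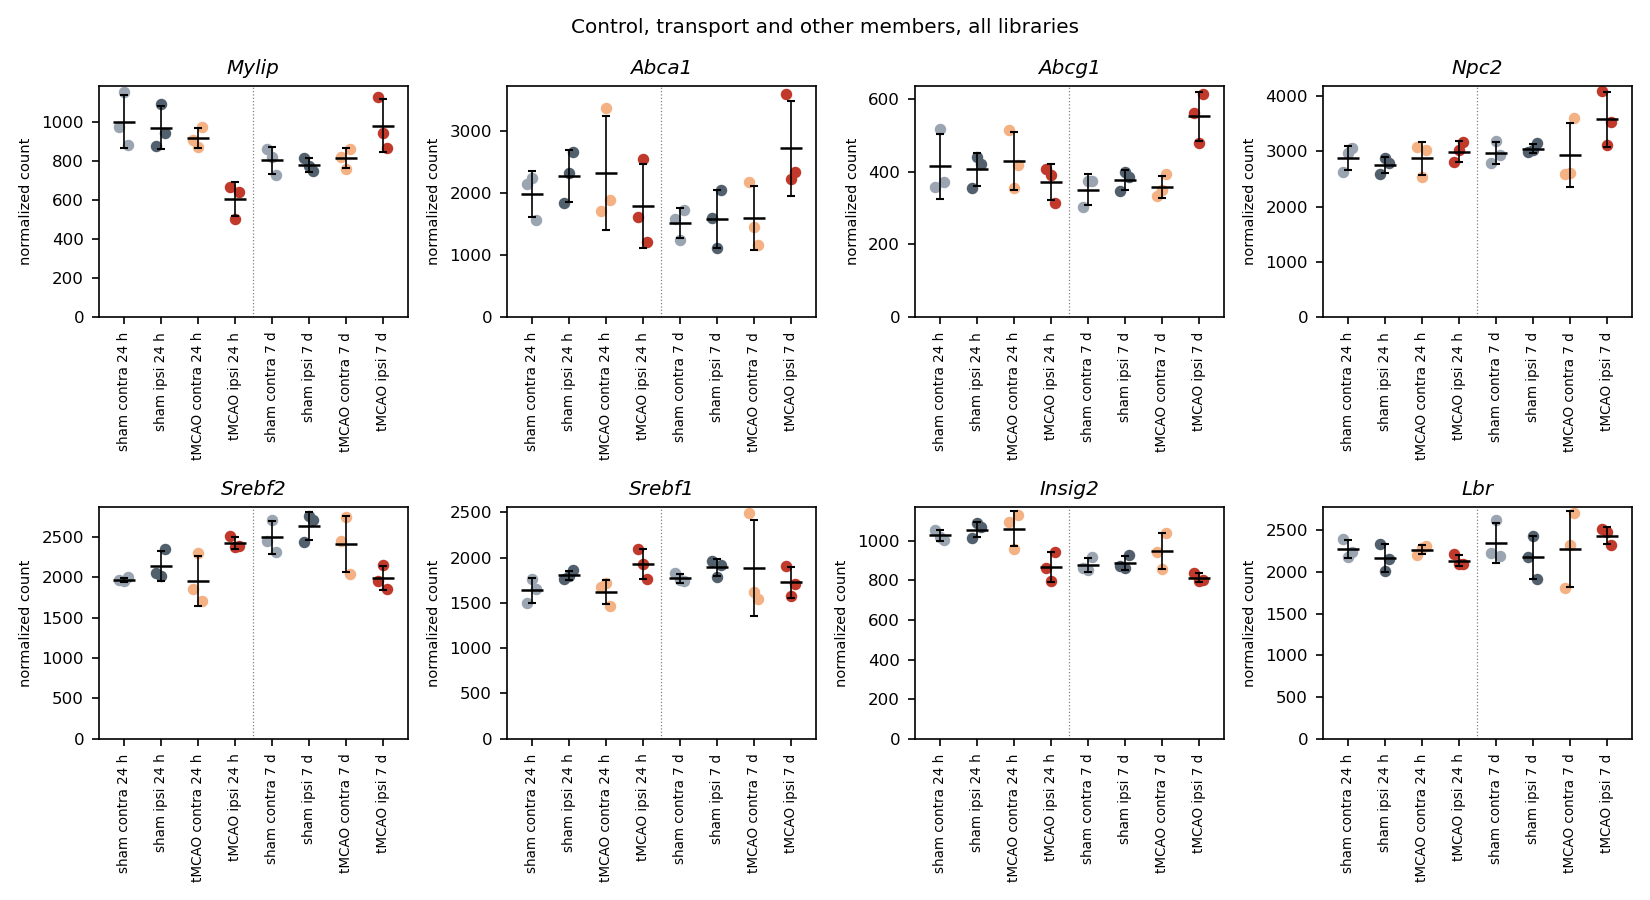
Normalized counts (y axis, from 0) of Mylip, Abca1, Abcg1, Npc2, Srebf2, Srebf1, Insig2 and Lbr in the 8 groups (x axis), with points for libraries, lines for means and bars for the SD of 3 libraries. Mylip is lowest in the ipsilateral tMCAO libraries at 24 h (505 to 670), and Abcg1 in those at 7 days (479 to 613) reaches above all shams of that time.

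Per kilobase of transcript, the mean level over the 24 libraries ranged from 593 normalized counts for Nr1h2 to 6.39 for Fdps. Nr1h2, Npc2 (552) and Lbr (474) led the order, and Sqle (46.3), Hsd17b7 (24.4) and Mvd (63.7), which changed most at 24 h, were among the 10 lowest. Over the 24 libraries, log2 values of Sqle were most correlated with those of Cyp51 (r = 0.887), Fdft1 (0.841), Hsd17b7 (0.838), Hmgcs1 and Msmo1 (both 0.827), and most opposed to Mylip (-0.702). These libraries include the groups by which the genes differ, so the values describe a shared course over the groups. Within the groups, the median r of Sqle with the other enzymes was 0.146.

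Against the contralateral hemisphere of the same surgery the calls at 24 h were similar to those against sham. At 7 days fewer genes of the list were called lower, 3 of 34 or 8.8%, than the 8 of 34 against sham. That share is slightly below the 9.98% of all tested genes. The comparison with the contralateral side shares its ipsilateral libraries with the one against sham. Same-numbered hemispheres were not paired in this fit. With a replicate block that paired them, 2 genes were higher at 7 days, against 681 of 15982 tested genes. At 24 h the block called 1613 of all tested genes higher and 1113 lower, against 1360 and 821 without it. At 24 h, 5 genes were called higher (Mvd, Sqle, Cyp51, Hsd17b7 and Tmem97), against 8.51% of all tested genes, and Mylip lower, against 5.14% (with median centring 6.86% and 7.75% of all tested genes, and the same counts in the list). At 7 days Sqle, Hsd17b7 and Tmem97 were called lower, against 9.98%, and Abcg1 higher (log2FC 0.61, SE 0.16, limma adjusted p = 0.00864), against 3.03%. Without the contralateral library that stood apart, 2 genes were called lower and 1 higher. Mylip at 24 h was not called without the second ipsilateral or the third contralateral library. At 7 days 1 gene was called lower without the second ipsilateral library, and none higher without the third. The log2FC at 24 h were 1.26 for Sqle, 1.31 for Hsd17b7, 1.14 for Mvd and 0.71 for Cyp51.

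Ipsilateral tMCAO vessels at 7 days were also compared directly with those at 24 h. Here 8 genes were called lower (Hmgcs1, Mvd, Sqle, Lss, Cyp51, Msmo1, Hsd17b7 and Tmem97), against 8.44% of all tested genes, and Mylip higher (log2FC 0.70, SE 0.12), against 3.72%. With median centring 6 were lower and 2 higher, against 6.46% and 5.88%. Hsd17b7 fell by 1.69 and Sqle by 1.66 on the log2 scale. Lss was called here although its libraries overlapped (log2FC -0.66, SE 0.22, limma adjusted p = 0.036). Without the second library at 7 days or the first at 24 h, 2 genes were called higher.

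The 4 comparisons between control groups of the same time point gave no calls in the list. Sham ipsilateral against contralateral vessels had none at 24 h, against 0% of all tested genes, with 0 genes of the list at an unadjusted p under 0.05 (limma). At 7 days there was none, against 0%, with 1 such gene, Soat1. Contralateral tMCAO against contralateral sham vessels gave none at 24 h, against 0%, with 0 such genes, and none at 7 days, against 0.0313%, with 2 such genes, Insig1 and Stard4. The median log2FC of the 34 genes in these 4 comparisons lay between -0.05 and 0.03.

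Other pathways that share these factors were followed by lists drawn up by function. The shares of all tested genes to set beside their counts are 10.0% higher and 8.23% lower at 24 h, and 3.27% and 9.95% at 7 days. Of 18 fatty acid genes under SREBP control, 2 were called higher (11.1%) and 5 lower (27.8%) at 24 h, and 1 higher (5.56%) and 5 lower (27.8%) at 7 days, with a median log2FC of -0.21 and -0.24. The largest changes were those of Acacb (-1.12 at 24 h and 0.69 at 7 days), which makes malonyl-CoA at mitochondria, Acsl3 (-0.97 at 7 days), which activates fatty acids, and the desaturase Scd2 (-0.92 at 7 days). Of 14 genes of SREBP processing and sterol-driven degradation, Erlin1 alone was called, higher at 24 h (0.61, limma adjusted p = 5.78e-05), and none at 7 days. Of 12 genes of the isoprenoid branch, Pdss1 (1.04), Nus1 (0.80) and Rabggtb (0.68), which serve coenzyme Q, dolichol and Rab prenylation, were higher at 24 h, and none was called at 7 days.

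Of 6 tested genes of oxysterol metabolism, Cyp7b1 was higher (0.63) and Cyp27a1 lower (-0.96) at 24 h, and Cyp46a1, the cholesterol hydroxylase of neurons, was lower at 7 days (-2.36). Of 10 liver X receptor partners and targets, Pltp (-0.65) and Abcg4 (-0.999) were lower at 24 h and Abcg4 (-2.74) at 7 days. Of 23 genes of uptake, lysosomes and sterol transfer, the call at 24 h took in 3 as higher and 3 as lower (13% each), and at 7 days 2 of each (8.7%), shares near those of all tested genes except for the higher calls at 7 days. The scavenger receptor Msr1 (1.84 at 24 h), the esterifying enzyme Soat2 (1.83 at 7 days) and the lipoprotein receptor Vldlr (-1.34 at 7 days) had the largest changes.

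Markers of other cell types moved in the same comparisons, and their part in the results was not tested. Of 6 pericyte markers, 3 were lower at 24 h and 2 at 7 days, with ipsilateral sums that did not overlap (55748 to 78856 normalized counts after tMCAO against 87875 to 112534 after sham surgery, and 70515 to 73334 against 101495 to 128568). Of 8 endothelial markers, Slco1a4 alone was called, lower at 24 h, and the sums overlapped at 7 days (350854 to 455295 against 304889 to 428292). Of 4 choroid plexus markers, 3 were lower at 7 days (613 to 2987 against 15541 to 28650), and the sums overlapped at 24 h (7679 to 20278 against 5029 to 73033). Of 4 fibroblast markers, 2 were lower at 7 days (5331 to 5634 against 8045 to 13184), as were 2 of 5 markers of oligodendrocyte precursors (2409 to 3298 against 3271 to 4725). Of 5 microglia markers, 2 were lower at 24 h (497 to 733 against 531 to 1229) and 1 at 7 days (699 to 990 against 518 to 1008). The sums of 4 smooth muscle markers overlapped at both times (23506 to 61669 against 53777 to 55859, and 28127 to 57292 against 42527 to 71597). All 6 neuron markers were lower at 7 days, with ipsilateral sums of 363 to 666 normalized counts after tMCAO against 3196 to 5313 after sham surgery, and 4 of 6 at 24 h, with 1426 to 1922 against 3595 to 3892. Of 6 astrocyte markers, 3 were lower at 24 h (9978 to 15398 against 14706 to 22424) and 2 at 7 days (8734 to 11651 against 13404 to 28990). Of 8 oligodendrocyte markers, 2 were lower at each time, with sums that overlapped (20873 to 50213 against 35728 to 68170, and 53903 to 71155 against 31139 to 75838). Of 7 macrophage markers, 3 stood higher at 24 h (7090 to 13594 against 4505 to 6854), while at 7 days 2 stood higher and 1 lower, with sums that overlapped (4832 to 8384 against 4436 to 6675). All 5 tested neutrophil markers were higher at 24 h (sums over the whole list 2504 to 5733 against 219 to 1132). At 7 days 1 of them was higher, with sums that overlapped (744 to 4570 against 189 to 1650). All 5 tested proliferation markers were higher at 7 days (295 to 365 against 62 to 66). The only tested T cell marker was lower at 7 days, while the sums over that list overlapped (59 to 90 against 85 to 87). No marker of these lists was at 0 in every library of a group.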

How the data were processed

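RNA of microvessels of 24 pools was sequenced by the authors after a stranded TruSeq preparation. According to the submitters' processing notes, STAR 2.5.2b, featureCounts 1.5.1 and DESeq2 1.6.2 were used with mm10. The deposited values are a score, namely reads per gene that the authors scaled with the size factors of DESeq2 and rounded to whole numbers, relative to the 24 libraries together. They are no raw counts, so no count model was run. Reads that matched several genes had been excluded, which lowers genes with overlapping exons, and some of the libraries made were left out by the authors as outliers. Estimated reads per library were 13693168 to 20033951. For genes of low counts such as Fdps and Tm7sf2, the SD between libraries was below the square root of the mean count in 5 of 8 groups, so that counting error bears on them as well.

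Groups came from the labels of the libraries. The 34 genes and all lists were chosen with earlier results of these data known. After a pseudocount of 1, log2 values of genes with a mean above 5 over the 24 libraries were fitted with limma 3.58.1 in R 4.3.3, with a trend of the variance and all 8 groups in 1 fit, with Benjamini-Hochberg adjustment over 15982 genes in each of 12 comparisons. The limits, an adjusted p of 0.05 and a 1.5-fold change, are those of the study's methods. All 34 genes are named, values per library are given for those called in either ipsilateral comparison with sham or in their difference, and at most 3 called genes are named for each further list. By their labels libraries are numbered pools, and the main fits did not pair same-numbered libraries of the hemispheres. Those of sham mice deviated together from their group means (r = 0.145 to 0.467), and a replicate block changed no call of the list between these hemispheres. Those of tMCAO mice had r = 0.059 to 0.36, and there the block gave 2 genes of the list higher at 7 days. Tested on simulated data, the comparison at 24 h called 42.9% of 105 genes with a simulated log2 change of 1 and 93.6% of 94 with one of 2 among 15977 genes tested, with 9 unchanged genes called. All genes were simulated with the same dispersion of 0.05, and 200 were changed in 1 group. The real comparison called 1603 genes higher and 1316 lower, so these shares do not give the power for the genes of the list. Alternatives were a pseudocount of 0.5, other filters, median centring, a replicate block, fewer groups, no limit on the fold change, a correction for length and GC content of transcripts, another reference and each library left out. Sequences and motifs came from RefSeq (GRCm38.p6), with 28 of 34 genes matched by symbol. Tables were handled with Python 3.11.15, pandas 2.3.3, numpy 2.4.6 and matplotlib 3.10.9. Some genes of the pathway are not reported here.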

Additional observations from a re-analysis of the deposited data

Results flagged for a closer look

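For 13 of the 34 genes the effect of tMCAO in ipsilateral vessels differed between the time points by the test of the difference itself (limma, 7 days minus 24 h, with separate sham groups). Of all tested genes, 5.68% were called lower and 2.43% higher by this test. Nsdhl, Dhcr7 and Srebf2 were not called with median centring. They were called in 3, 5 and 5 of the 12 fits that each left out 1 library. The difference of the log2 fold changes was -2.41 for Sqle, -1.91 for Hsd17b7, -1.67 for Cyp51, -1.58 for Mvd, -1.49 for Tmem97, -1.31 for Msmo1 and -1.22 for Dhcr7. It was -0.94 for Fdft1, -0.92 for Hmgcs1, -0.82 for Insig1, -0.66 for Nsdhl, -0.59 for Srebf2 and 1.01 for Mylip. Since sham vessels at 7 days had a median log2FC of 0.203 over the 34 genes against those at 24 h, these differences hold a part from each sham group.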

How the results depend on the processing

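Mvd, Sqle and Hsd17b7 at 24 h and Sqle, Cyp51, Hsd17b7 and Tmem97 at 7 days were called under each of the 15 settings tried. No called value changed direction. Among values not called, 6 of the 34 at 24 h and 6 at 7 days changed sign under at least 1 setting (Mvd at 7 days from -0.345 to 0.137, Insig1 at 24 h from -0.092 to 0.186), and positive values numbered 24 to 28 at 24 h and negative ones 23 to 25 at 7 days. Without the fold-change limit, 10 genes were higher and 2 lower than sham at 24 h, against 2783 and 2102 of 15982 tested. At 7 days 12 differed from sham, 1 of them higher, against 970 higher and 1730 lower of all tested genes. Fdft1, Sc5d and Srebf2 joined the lower ones. Against the contralateral side 9 were higher and 2 lower at 24 h (2305 and 1599 of all tested genes) and 8 lower at 7 days (1753). At 7 days against 24 h 2 were higher (1127). Between the ipsilateral shams 2 changed (61 higher and 33 lower of all tested genes). The correction for length and GC content gave 1 gene higher at 7 days against sham and 2 against the contralateral side. Of all 15966 genes tested there, 600 and 539 were higher. Median centring gave 1 lower at 7 days against the contralateral side (9.67% of all tested genes). It gave 2 higher both at 7 days against 24 h (5.88%) and in the difference of effects (3.72%). With only the compared groups in the fit, 0 genes were lower at 7 days against the contralateral side, 2 were higher in the difference and 0 changed between ipsilateral shams. Of all tested genes, 897 were lower, 374 were higher in the difference, and 22 were higher and 6 lower between these shams. With both sham groups as the reference, chosen after seeing the data, 0 were lower at 24 h and 4 at 7 days. The shares of all tested genes were 10.2% and 11.6%. The cause of these changes was not tested. With the replicate block, 2 genes were higher at 7 days against the contralateral side and 2 changed between ipsilateral shams. Of all tested genes, 681 were higher there, and 64 were higher and 38 lower between these shams. Numbers of tMCAO and sham libraries share only a number, with correlations of deviations of -0.252 to 0.15.

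With each library left out in turn, genes lower at 24 h against sham numbered 0 to 1, higher at 7 days 0 to 1 and lower at 7 days 5 to 8. Among all 15982 tested genes these calls numbered 833 to 1403, 329 to 559 and 1131 to 1570. Against the contralateral side genes of the list numbered 0 to 1 lower at 24 h, 0 to 1 higher at 7 days and 1 to 3 lower at 7 days. All tested genes so called numbered 535 to 1052, 339 to 531 and 1152 to 1691. Genes of the list higher at 7 days against 24 h numbered 1 to 2 (338 to 723 of all tested genes). Those higher in the difference numbered 1 to 2 (203 to 446). Those changed between shams of the time points numbered 0 to 2 on either side. Of all tested genes, 10 to 38 were higher and 6 to 20 lower between ipsilateral shams, and 2 to 33 and 2 to 43 between contralateral ones.

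Precision is limited by 3 libraries per group. In simulation, the difference of effects called 13.3% of genes with a true log2 change of 1 and 79.8% of those with 2. That simulation used a dispersion of 0.05 for all genes and 200 changed genes. In the data 908 genes were called lower and 389 higher, so these shares do not give the power for the genes of the list.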
